A study of Saccharomyces cerevisiae with 8 samples.

Results

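The genes that bring glucose into Saccharomyces cerevisiae and the sensors that set their level were measured on 1-colour arrays in cells grown with and without hydrogen peroxide. The 10 genes are the hexose transporters HXT1, HXT2, HXT3, HXT4, HXT5, HXT6 and HXT7, the glucose sensors SNF3 and RGT2, and STD1, a partner of the repressor Rgt1. They were chosen by name, as the spots whose open reading frame is one of these genes, and they are 10 of the 6225 genes on the array, each with 1 probe spotted in 2 copies. All cells were of strain CENPK.2-1C, grown in YPD, a rich glucose medium, and collected in exponential phase at an OD600 of 1.0. The 4 groups were TFIIB mutant cells with 4 mM H2O2, TFIIB mutant cells without H2O2, control cells with 4 mM H2O2 and control cells without H2O2. Each group had 2 arrays, and the series' design text calls them biological replicates. TFIIB is the general transcription factor, encoded by SUA7, that joins RNA polymerase II to the promoter, and the change it carries is not given in the sources used here.

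Yeast takes up glucose only by facilitated diffusion, through transporters whose affinity is matched to the sugar outside the cell. HXT1 and HXT3 encode low-affinity carriers used when glucose is plentiful, HXT2, HXT4, HXT6 and HXT7 encode intermediate- to high-affinity carriers that are repressed in high glucose, and HXT5 encodes a carrier of moderate affinity made when growth slows. At the plasma membrane Rgt2 senses high glucose and Snf3 senses low glucose, and both signal the breakdown of the Rgt1 partners Mth1 and Std1, which lifts repression of the HXT genes.

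On the control arrays the median probe read 3547 to 6022 units of processed signal, and all 10 genes were well above background on all 4 of these arrays, so all 10 passed the filter on dim genes. On the 4 arrays labelled mutant the median probe read 6.04 to 9.75 units. Between 1 and 5 of the 10 genes were well above background there, where 21.8 to 41.2% of all probes were. On the control arrays 94.7 to 97.2% of all probes were well above background. SUA7 itself read 6.08 to 9.71 units on the arrays labelled mutant, against 13788 to 30808 units on the control arrays. The E1A spike-in probes, which read control RNA added at labelling, stood at 3210 to 4693 units on the arrays labelled mutant and 2621 to 4079 units on the control arrays. Among mating-type markers, which check the labelled strain, 5 genes of MATa cells summed to between 48991 and 75250 units on the control arrays, and 4 genes of MATalpha cells summed to between 1190 and 2420 units. On the arrays labelled mutant the sums of both marker sets lay between 39.3 and 63.9 units. All 8 arrays lay on 1 slide, where the row goes with H2O2, so a row effect and H2O2 cannot be told apart. The column goes with the strain, so a column effect and the strain cannot be told apart either.

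**Figure D1:**
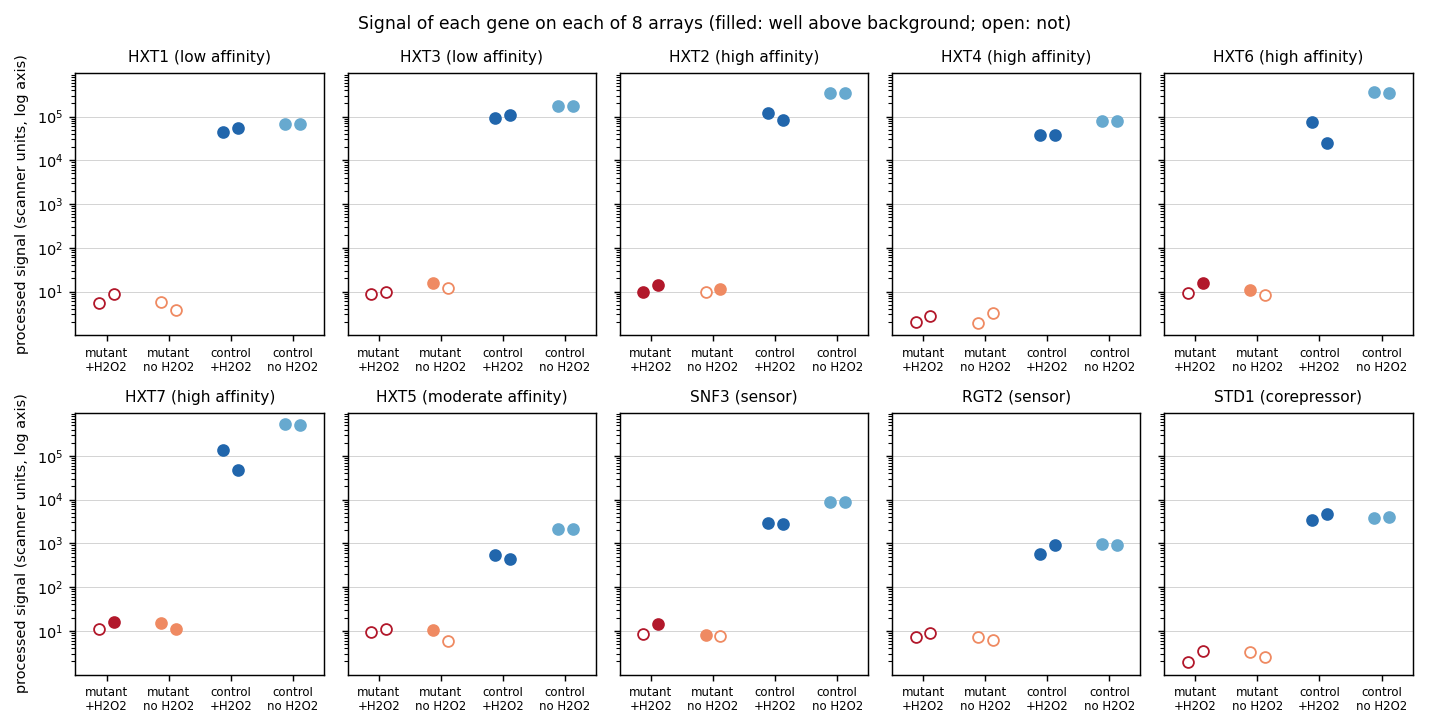
Processed signal of each gene (scanner units, log axis) on each of the 8 arrays, 1 point per array, with filled points well above background and open points not. The 4 control arrays read every gene well above background, and the arrays labelled mutant read no gene above 15.6 units.

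The first comparison asked how the RNA of these genes differs in control cells grown with and without H2O2. HXT6, HXT7, HXT5, HXT2 and SNF3 were lower in H2O2, by 2.16 to 5.75-fold. STD1 was 1.501-fold higher, and HXT1, HXT3, HXT4 and RGT2 did not pass the test. Thus 5 of the 10 genes were lower and 1 was higher, where 14% of the 6045 genes tested were lower and 13.1% higher (limma, adjusted p under 0.05 over all genes tested, 2 arrays a group). HXT6 and HXT7 count as 2 of the 5 lower genes, though their probes may not separate the copies. The median change of the 10 genes was -0.84 on the log2 scale, and that of all genes tested was 0.03. These changes are of log2 signal relative to each array's 75th percentile. On the spike-in scale the median of all genes moved to -0.52 and that of the 10 genes to -1.38. There 5 of the 10 were lower, against 15.9% of all genes, and none was higher, against 0.48%.

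**Figure D2:**
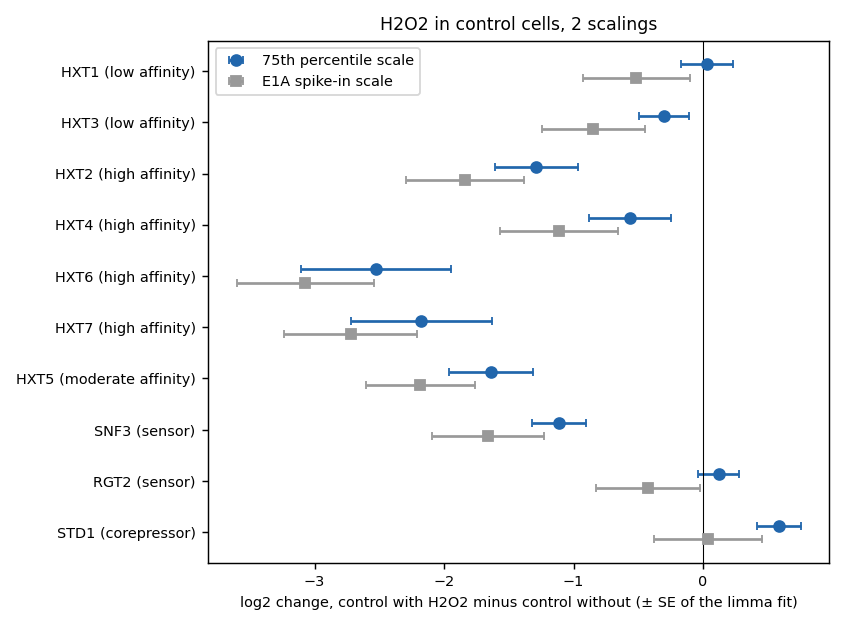
Log2 change in control cells, with H2O2 minus without (x axis, ± SE of the limma fit), for each of the 10 genes on the 75th percentile scale (blue circles) and the E1A spike-in scale (grey squares). HXT6 and HXT7 lie farthest to the left on both scales, at -2.52 and -2.17 on the 75th percentile scale.

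Neither of the 2 low-affinity transporters passed the test in H2O2. HXT1 (YHR094C, chromosome VIII, 290913 to 292625, minus strand, release 64-1-1) read 44499 and 55785 units in control cells with H2O2, against 68491 and 69431 units in control cells without H2O2. The control arrays with H2O2 were dimmer as a whole, with a 75th percentile of 9185 and 12898 units against 15424 and 15403 units without. After scaling, HXT1 stood at 2.28 and 2.11 log2 units above the 75th percentile with H2O2 and at 2.15 and 2.17 without it. The scaled groups overlapped, and the change was 0.03 ± 0.20 (SE, adjusted p = 0.915), turning to -0.51 on the spike-in scale and to -0.02 after quantile normalization, with or without normexp, and to -0.05 without the first array with H2O2. HXT3 (YDR345C, chromosome IV, 1162957 to 1164660, minus strand), the other low-affinity carrier, read 91876 and 107734 units with H2O2 and 173660 and 173389 units without it. Both scaled values with H2O2, 3.32 and 3.06, lay below both without it, 3.49 on each array. Its change of -0.30 ± 0.20 (SE) had an adjusted p of 0.301 by limma and was -0.85 on the spike-in scale (adjusted p = 0.157). The change passed the test on neither scale, and ran from -1.12 to -0.17 over all alternatives tried.

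Of the 4 high-affinity transporters, 3 were called lower. HXT6 (YDR343C, chromosome IV, 1159608 to 1161320, minus strand) read 75826 and 25010 units in control cells with H2O2, against 362340 and 347246 units without. HXT7 (YDR342C, chromosome IV, 1154216 to 1155928, minus strand), its tandem neighbour, read 134247 and 48575 units with H2O2 and 523209 and 509521 units without. For both genes the arrays with H2O2 lay well below those without, and the second array with H2O2 lay well below the first. HXT6 was 5.75-fold lower (-2.52 ± 0.58, SE, adjusted p = 0.0207) and HXT7 was 4.51-fold lower (-2.17 ± 0.54, SE, adjusted p = 0.0268). The coding sequences of HXT6 and HXT7 are nearly identical, and the files hold no probe sequence, so the 2 values cannot be taken as independent measures of 2 genes. Both probes are listed at the 3' end of their gene. The replicates of HXT6 with H2O2 differed by 2.09 on the log2 scale, the largest such gap among the 10 genes in that group. Without the second array with H2O2, HXT6 stood at -1.48 and HXT7 at -1.20, and without the first they stood at -3.57 and -3.15.

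HXT2 (YMR011W, chromosome XIII, 288079 to 289704, plus strand), a high-affinity carrier outside the HXT clusters, read 122358 and 84300 units with H2O2, against 353185 and 348926 units without. It was 2.44-fold lower (-1.29 ± 0.32, SE, adjusted p = 0.0266), and again the second array with H2O2 was the lower. Without that second array its change was -0.77, with an adjusted p of 0.096 (0.00475 to 0.146 over all alternatives tried). HXT4 (YHR092C, chromosome VIII, 287081 to 288811, minus strand) read 36994 and 38045 units with H2O2 and 79160 and 77700 units without. The groups did not overlap, but the change of -0.56 ± 0.32 (SE, adjusted p = 0.237) did not pass the test. HXT4 is the only one of the 4 high-affinity genes that was not called, and whether it differed from the other three was not tested.

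A difference between 2 genes within an array does not depend on how that array is scaled. The mean log2 signal of HXT2, HXT4, HXT6 and HXT7 minus that of HXT1 and HXT3, set to 0 in control cells without H2O2, was -0.92 and -2.09 on the 2 control arrays with H2O2. It was 0.02 and -0.02 on the 2 control arrays without H2O2. The mean with H2O2 was -1.503 ± 0.83 (SD, n = 2), a 2.83-fold shift of the high- relative to the low-affinity genes. HXT6 and HXT7, which cannot be taken as independent, are 2 of the 4 genes in that mean. Both arrays with H2O2 lay below both arrays without it. The array with the larger shift was the one lower in HXT6 and HXT7, both of which enter that mean. On the same scale each of the 4 genes was below 0 on both arrays with H2O2, with HXT4 nearest to 0 at -0.31 and -0.55 and HXT6 farthest at -1.45 and -3.33. The shift was -3.80 after quantile normalization, which changes differences within an array, and the cause of that larger value was not tested. With 2 arrays a group this is a description and carries no test.

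**Figure D3:**
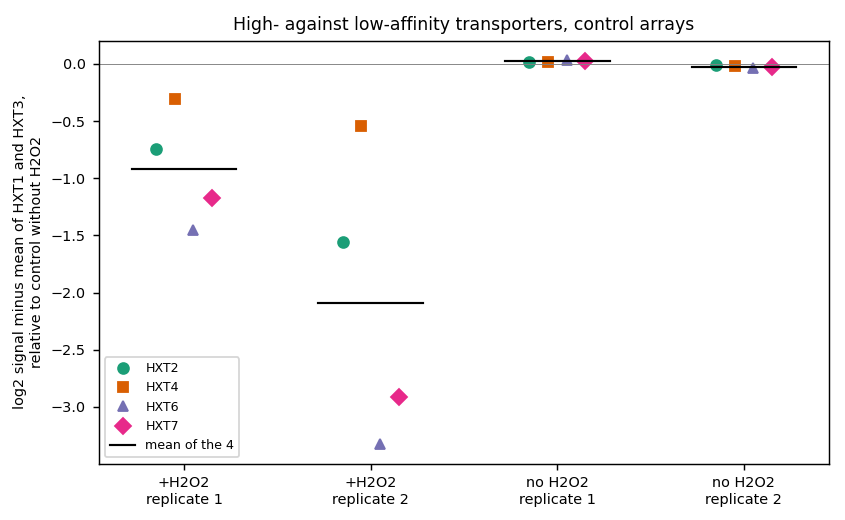
Log2 signal of each high-affinity gene minus the mean of HXT1 and HXT3 (y axis, set to 0 at the mean of control cells without H2O2) on each of the 4 control arrays, with a bar for the mean of the 4 genes. The bars lie at -0.92 and -2.09 with H2O2 and at 0.02 and -0.02 without it, and HXT6 and HXT7 lie lowest on both arrays with H2O2.

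HXT6 and HXT7 moved nearly alike within each array, with HXT7 minus HXT6 at 0.28 and 0.42 on the control arrays with H2O2 and at -0.01 and 0.01 on those without, where the mean was set to 0. HXT1 minus HXT3, the same measure for the low-affinity pair, was 0.29 and 0.38 with H2O2 and -0.01 and 0.01 without it. Neither pair was tested for a difference.

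HXT5 (YHR096C, chromosome VIII, 294669 to 296447, minus strand), the moderate-affinity carrier, read 540 and 427 units in control cells with H2O2, against 2125 and 2102 units without. All 4 readings were well above background, and the groups did not overlap. HXT5 was 3.10-fold lower (-1.63 ± 0.32, SE, adjusted p = 0.0131). After quantile normalization its change was -0.93, with an adjusted p of 0.244 (0.000849 to 0.31 over all alternatives tried).

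Of the 2 sensors SNF3 was called and RGT2 was not. SNF3 (YDL194W, chromosome IV, 111580 to 114234, plus strand), the sensor of low glucose, read 2892 and 2806 units with H2O2 and 8838 and 8604 units without. It was 2.16-fold lower (-1.11 ± 0.21, SE, adjusted p = 0.0106). Over the alternatives tried the SNF3 change ran from -1.66 to -0.57, and its call was lost under 7 of 23. RGT2 (YDL138W, chromosome IV, 213351 to 215642, plus strand), the sensor of high glucose, read 574 and 905 units with H2O2 and 946 and 930 units without. Its change was 0.12 ± 0.16 (SE, adjusted p = 0.616), turning to -0.43 on the spike-in scale, and it did not pass the test on either. Within arrays, RGT2 minus SNF3 was 0.88 and 1.58 on the control arrays with H2O2, and -0.01 and 0.01 on those without, a difference that was not tested.

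STD1 (YOR047C, chromosome XV, 416347 to 417681, minus strand), which acts with Rgt1 at HXT promoters, read 3459 and 4812 units with H2O2, against 3760 and 3940 units without. The readings overlapped before scaling. After scaling they stood at -1.41 and -1.42 with H2O2 and at -2.04 and -1.97 without, which do not overlap. STD1 was 1.501-fold higher (0.59 ± 0.17, SE, adjusted p = 0.0438) on this scale. That call was lost under 13 of 23 alternatives tried. On the spike-in scale the change was 0.04 with an adjusted p of 0.958 (0.000181 to 0.958 over all alternatives tried), so the rise was one relative to the other genes of the array.

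**Figure D4:**
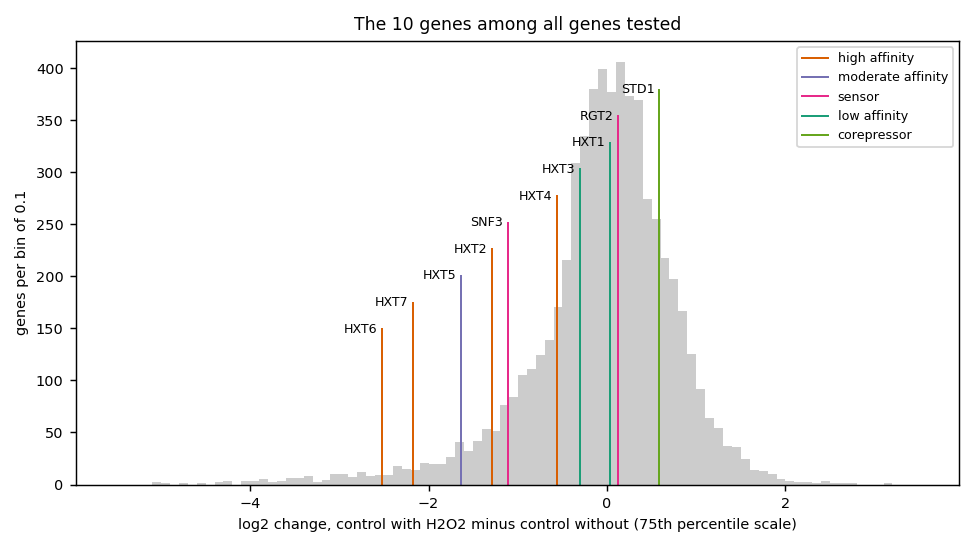
Distribution of the log2 change with H2O2 in control cells (x axis, 75th percentile scale) over the 6045 genes tested, as genes per bin of 0.1 (y axis), with a line at each of the 10 genes whose height has no meaning. HXT6 lies at the 1.75 percentile and HXT7 at the 2.56 percentile, while HXT1, at the 50 percentile, lies in the middle of all genes.

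These calls rest on the spread between arrays pooled over the 4 groups, which differed. Over all genes the SD of replicate differences was 0.45 in the mutant with H2O2, 0.62 in the mutant without, 0.44 in control cells with H2O2 and 0.14 in control cells without. The 2 control arrays without H2O2 differed by at most 0.07 on the log2 scale for any of the 10 genes. Over all genes the median variance between them was 1.39 times that of a mean of 2 duplicate spots on 1 array. For the control arrays with H2O2 that ratio was 21.5, and on the dim arrays labelled mutant, with and without H2O2, it was 1.57 and 1.60. The calls did not hold with the arrays without H2O2 averaged and counted as 1 sample. Leaving out either of the arrays without H2O2 likewise ended all calls, and leaving out the second array with H2O2 ended most of them.

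The mutant was then set against control cells, first without H2O2, on the same control arrays that served the comparison above. All 10 genes were darker on the arrays labelled mutant, where HXT7 read 15.3 and 11.1 units, against 523209 and 509521 units on the control arrays. HXT6 read 11.1 and 8.24 units, against 362340 and 347246 units in control cells. HXT1 read 5.83 and 3.70 units, against 68491 and 69431 units in control cells. The median probe of the whole array read 7.23 and 6.19 units on these mutant arrays, against 6022 and 5957 units on the control arrays. Since the whole array was dark, which way a gene was called depended on the scale. On the 75th percentile scale 6 of the 10 were lower and 2 higher, where 28.8% of all genes were lower and 50.5% higher (limma). On the spike-in scale all 10 were lower, and so were 99.6% of all genes. The median of all genes was 0.63 on the first scale and -10.19 on the second. The labels give all 8 samples the same labelling protocol, and whether the yeast RNA of these 4 was labelled and hybridised like that of the control samples was not tested. Fewer cells, less RNA per cell and poorer labelling cannot be told apart in such bulk samples, and each fold against the mutant arrays is a fold against readings near background.

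On the arrays labelled mutant the 10 genes read between 1.87 and 15.6 units, whatever their level in control cells. The genes called higher relative to the 75th percentile were the dimmer ones in control cells, and those called lower were the brighter ones. How far the unequal readings on the arrays labelled mutant entered these changes was not tested. HXT7, well above background on both mutant arrays without H2O2, was 26.7-fold lower (-4.74 ± 0.54, SE, adjusted p = 0.000119). HXT6 was 25.0-fold, HXT2 22.1-fold and HXT3 8.61-fold lower, each well above background on only 1 of the 2 mutant arrays. Scaled to the spike-in probes, HXT7 was 48428-fold lower, and HXT1 was lower by a factor of at least 11170. HXT1 was at least 6.15-fold and HXT4 at least 6.995-fold lower (adjusted p = 3.8e-06 and 9.23e-06, limma), bounds because both probes lay in the background on the 2 mutant arrays without H2O2. HXT5 (2.46 ± 0.32, SE, adjusted p = 0.000253) and RGT2 (3.39 ± 0.16, SE, adjusted p = 1.07e-06) were higher on that scale, and turned to -8.37 and -7.43 relative to the spike-in probes. HXT5 read 10.3 and 5.93 units on those mutant arrays and RGT2 7.11 and 6.21 units, close to the median probe. RGT2 was not well above background there and HXT5 was so on 1 of the 2 arrays. SNF3 (0.41 ± 0.21, SE, adjusted p = 0.106) and STD1 (0.17 ± 0.17, SE, adjusted p = 0.387) did not pass the test on the 75th percentile scale and changed sign under several scalings. In the authors' deposited table for this comparison HXT7 was 384-fold lower (corrected p = 0.00961), HXT6 299-fold lower (corrected p = 0.00833) and RGT2 4.18-fold higher (corrected p = 0.00487) in the mutant.

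With H2O2, the arrays labelled mutant read HXT7 at 11.1 and 15.6 units, against 134247 and 48575 units on the control arrays with H2O2. HXT3 read 8.56 and 9.61 units there, against 91876 and 107734 units in control cells. SNF3 read 8.44 and 14.1 units, against 2892 and 2806 units in control cells. The whole array was again dark, with the median probe at 6.04 and 9.75 units on these mutant arrays, against 3547 and 4801 units on the control arrays. On the 75th percentile scale 7 of the 10 were lower and 3 higher, where 28.3% of all genes were lower and 51.7% higher (limma), and on the spike-in scale all 10 and 99.4% of all genes were lower. HXT3 was at least 11.98-fold lower (adjusted p = 2.07e-06), HXT1 at least 5.998-fold and HXT4 at least 4.52-fold. Scaled to the spike-in probes, HXT3 was lower by a factor of at least 13575. HXT2, well above background on both mutant arrays with H2O2, was 9.51-fold lower. HXT7 was 6.77-fold lower (adjusted p = 0.00222) and HXT6 4.01-fold lower (adjusted p = 0.0142), each well above background on only 1 of them. Without the first control array with H2O2 the HXT6 change was -0.96 and without the second -3.05, and for HXT7 they were -1.78 and -3.74. HXT6 lost its call under 5 of 24 alternatives and HXT7 under 1, with adjusted p up to 0.115 for HXT6 and 0.0961 for HXT7. STD1, not well above background on either of those arrays, was lower by the fit (-0.79 ± 0.17, SE, adjusted p = 0.0038), turning to 1.23 with a normexp background correction. HXT5 (4.26), SNF3 (1.80) and RGT2 (3.33) were higher relative to the 75th percentile and turned to -5.88, -8.35 and -6.82 on the spike-in scale. HXT5 and RGT2 were not well above background on either array labelled mutant with H2O2, and SNF3 was so on 1. In the authors' deposited table for this comparison HXT7 was 5.99-fold lower with a corrected p of 0.274, and HXT5 was 6.80-fold higher with a corrected p of 0.0367, in the mutant.

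Within the arrays labelled mutant, H2O2 moved none of the 10 genes past the threshold by limma, where 0.0331% of all genes were called. HXT3 had the smallest unadjusted p of the 10 (0.00483, limma, adjusted p = 0.196). It read 8.56 and 9.61 units with H2O2 and 15.5 and 11.9 units without. The high- minus low-affinity difference, on the same zero as before, was -1.30 and -1.18 on the arrays labelled mutant with H2O2 and -1.62 and -1.07 on those without. The 2 sets overlapped. Only 4 of 12 readings behind it were well above background with H2O2, and 5 of 12 without.

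The response to H2O2 was compared between the strains as an interaction, mutant minus control. It was called for HXT5 (1.80 ± 0.46, SE, adjusted p = 0.0486) and SNF3 (1.39 ± 0.29, SE, adjusted p = 0.0315) and, with the opposite sign, for STD1 (-0.96 ± 0.24, SE, adjusted p = 0.0491). That is 2 of 10 genes higher and 1 lower, where 6% of all genes were higher and 5.57% lower (limma). On the spike-in scale 4 of the 10 were higher, where 7.63% of all genes were, and none was lower, against 0.0496% of all genes. The mutant side of each rests on readings of 1.98 to 14.1 units, of which 1 of 4 was well above background for HXT5, 2 of 4 for SNF3 and 0 of 4 for STD1. With so little measured there, the 3 values do not show how the mutant responded. The change with H2O2 was -1.63 in control cells and 0.17 in the mutant for HXT5, and -1.11 and 0.28 for SNF3. For STD1 it was 0.59 in control cells and -0.37 in the mutant. None of the 3 calls held with the control arrays without H2O2 averaged, where adjusted p was 0.169 for HXT5, 0.147 for SNF3 and 0.216 for STD1. Over all alternatives tried it ran between 0.0102 and 0.409 for HXT5, between 0.00681 and 0.199 for SNF3 and between 0.00127 and 0.97 for STD1.

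The wider glucose pathway was read from a list of 21 genes of glucose induction and repression, all of them tested. In control cells with H2O2, 4 were lower and none higher than without (limma), with a median change of -0.23. Over all genes 14% were lower, 13.1% were higher and the median was 0.03, so the share of the list that was lower was near that of all genes. SUC2, the invertase that splits sucrose and is repressed by glucose, read 6454 and 5600 units with H2O2, against 56765 and 51186 units without, and was 6.33-fold lower (-2.66 ± 0.46, SE, adjusted p = 0.00866). MTH1, the paralog of STD1, read 3845 and 1009 units with H2O2 and 14517 and 13599 units without, and was 5.04-fold lower (adjusted p = 0.0419). MTH1 thus lay on the side opposite to STD1, with the second array with H2O2 far below the first. GPA2, the G protein of the glucose receptor Gpr1, was 2.39-fold lower (adjusted p = 0.0325). SIP2, a beta subunit of the Snf1 kinase, was 2.06-fold lower (adjusted p = 0.011). The repressor RGT1 (0.08 ± 0.21, SE, adjusted p = 0.804) and the hexokinase HXK2 (-0.26 ± 0.25, SE, adjusted p = 0.498) did not pass the test. None of the 4 calls held with the control arrays without H2O2 averaged.

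A second list held 11 further members of the hexose transporter family, of which 10 were on the array and 8 were tested, since HXT13 and HXT14 were too dim. Of these 8, 3 passed the filter on dim genes only through the control arrays without H2O2, where they were brightest, so a fall in them was built in. The other 5 cleared background on every control array, and all 5 were lower in control cells with H2O2 (limma), where 14% of all genes were. HXT10 read 77.2 and 97.8 units with H2O2, against 476 and 418 units without. GAL2, the galactose permease, read 173 and 204 units with H2O2 and 875 and 879 units without, and was 3.30-fold lower (adjusted p = 0.0039). HXT15, HXT16 and HXT17 were 15.4- to 21.0-fold lower, but HXT15 and HXT16 passed the filter in that way, and the sequences of the 3 are close to one another, so which copy was read is uncertain. These genes are dim on the array, the 8 of them reading between 17.3 and 1352 units in control cells with H2O2. With the control arrays without H2O2 averaged, fewer of the 8 were called lower. That count mixes the 3 genes that passed the filter in that way with the other 5.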

How the data were processed

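Total RNA of 8 samples was labelled with Cy3 and hybridised to 1-colour Agilent yeast arrays, per the labels' protocols. The authors deposited 1 scanner file per array with spot intensity values made by Feature Extraction 10.7.1.1, per the file headers, background-subtracted and with a flag for spots well above background. Their deposited tables of mutant against control, 1 for each medium, give fold changes, p-values with and without correction from an unpaired test, and normalized log2 values, per the file headers, which also name a raw-signal filter of 20. The raw values in those tables, 8 columns in all, were not used here. Gene positions are those the deposited tables list for release 64-1-1, and they match the RefSeq gene table used for names.

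The processed signal of the scanner files was put on the log2 scale, averaged over the 2 spots of a probe and reduced by each array's 75th percentile over probes. Control spots (536 per array) and outlier spots were dropped. Saturation marked none. Where a gene had several probes, its brightest was used. A gene entered the test if some group had it well above background on both its arrays, which left 6045 genes in 1 fit of the 4 groups with limma 3.58.1 in R 4.3.3 (4 residual degrees of freedom). Tests are two-sided, adjusted by Benjamini-Hochberg over all genes tested within each comparison and called at an adjusted p under 0.05. All p-values measure only the spread between these samples, and 2 arrays a group limit the precision of every value. Where both arrays of a group read a gene in the background, its fold is a bound. The bright mean is then set against the dim reading or, if higher, that array's lowest signal well above background. The spike-in scale subtracts the mean of 7 E1A probes instead. Alternatives were other scalings and background corrections, filters, thresholds, probe rules, variance priors, a replicate block and leaving out arrays.

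The 10 genes, the 2 further lists and the tests were chosen with earlier results of these data known. Every one of the 10 genes is named, SUA7 is named as the targeted gene, and of each list up to 5 genes with the smallest p in each direction are named, together with RGT1 and HXK2, which were chosen after their values were seen.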

Additional observations from a re-analysis of the deposited data

Results flagged for a closer look

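For 3 of the 10 genes the limma interaction, the response to H2O2 in the mutant minus that in control cells, passed the threshold. It was 1.80 for HXT5 on the log2 scale (adjusted p = 0.0486), 1.39 for SNF3 (adjusted p = 0.0315) and -0.96 for STD1 (adjusted p = 0.0491). On the arrays labelled mutant HXT5 read 9.38 and 11.01 units with H2O2 and 10.3 and 5.93 units without. SNF3 read 8.44 and 14.1 units with H2O2 and 8.15 and 7.49 units without, and STD1 read 1.98 and 3.44 units with H2O2 and 3.37 and 2.54 units without. The median probe of those arrays read 6.04 to 9.75 units, and STD1 lay below it on each. Only 1 of 4 of these readings was well above background for HXT5, 2 of 4 for SNF3 and 0 of 4 for STD1, so the mutant's own response was hardly measured, and the part of background in the 3 values was not tested.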

How the results depend on the processing

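Of the 10 genes, 6 were called in control cells with H2O2 against control cells without. That count was 3 after quantile normalization with or without normexp, and 3 with the control groups fitted alone. It was 0 at an adjusted p under 0.01, where 253 rises and 299 falls remained over all genes. No call held with the control arrays without H2O2 averaged or with either of them left out. Most calls ended without the second control array with H2O2. Over all genes the 790 rises and 847 falls became 36 and 74 after quantile normalization, 14 and 45 with normexp and quantile, 2270 and 1965 with normexp and the 75th percentile, 29 and 964 on the spike-in scale and 38 and 86 with the averaged arrays. The interaction called 3 genes, but 0 after quantile normalization, 0 with the percentile taken over genes measured on all 8 arrays, 5 with normexp and the 75th percentile, 1 without a filter, 0 at an adjusted p under 0.01, 0 with the averaged arrays, and 0 to 5 as arrays were left out. The high- minus low-affinity shift of -1.503 was -3.80 after quantile normalization, -3.40 with normexp and quantile, and -2.09 to -0.92 as arrays were left out. Of the 21 pathway genes, the 4 falls and no rise became 0 and 0 after quantile normalization, 11 and 3 with normexp and the 75th percentile, and 7 and 3 with the control groups fitted alone. The 8 falls of the further transporters, some of them built in by the filter on dim genes, became 2 after quantile normalization and 1 with normexp and quantile. The cause of these differences was not tested, beyond the smaller number of samples in the averaged and reduced fits.

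Signs turned as follows. HXT1 with H2O2 in control cells was -0.019 after quantile normalization, -0.51 on the spike-in scale, -0.023 with normexp and quantile, and -0.049 to 0.115 as arrays were left out, negative without the first control array with H2O2. RGT2 was -0.43 on the spike-in scale. For the mutant without H2O2, the spike-in scale gave -8.37 for HXT5, -10.42 for SNF3, -7.43 for RGT2 and -10.66 for STD1. SNF3 was also -0.32 by array medians, -0.084 after quantile normalization, -0.28 with the percentile of genes measured on all 8 arrays, and -0.10 in the authors' deposited normalized values. STD1 was -0.56, -1.16, -0.51 and -1.20 in the same 4 settings and -1.03 with normexp and quantile. For the mutant with H2O2, the spike-in scale gave -5.88 for HXT5, -8.35 for SNF3 and -6.82 for RGT2, and normexp with the 75th percentile gave 1.23 for STD1. HXT4 was called lower in control cells under 1 alternative, normexp with the 75th percentile.

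Replicate numbers did not pair the samples: correlations of replicate differences between groups ran from -0.07 to 0.21. With a replicate block 5 of the 10 genes were called in control cells (STD1 was lost, adjusted p = 0.0707), 2 in the interaction, and the counts against control cells stayed at 8 and 10. Over all 6045 genes the block gave 662 rises and 758 falls in control cells, and 277 and 219 in the interaction.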

Other observations

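Genes next to the transporters, chosen after their values were seen, did not all move with them in control cells with H2O2. On chromosome IV the cluster of HXT7, HXT6 and HXT3 is flanked by YDR341C, whose change was 0.21 ± 0.27 (SE, adjusted p = 0.601, limma), and by SVF1, whose change was -0.04 ± 0.15 (SE, adjusted p = 0.881). YDR344C, a dubious reading frame between HXT6 and HXT3, read 33.6 and 40.4 units with H2O2, against 24.3 and 25.0 units without, and only 2 of these 4 readings were well above background. On chromosome VIII the cluster of HXT4, HXT1 and HXT5 is flanked by MSR1, the mitochondrial arginyl-tRNA synthetase, whose change was 0.01 ± 0.31 (SE, adjusted p = 0.992). On its other side PAL2 read 6452 and 2786 units with H2O2, against 26412 and 24957 units without, a change of -2.10 ± 0.48 (SE, adjusted p = 0.0207), so HXT5 and its neighbour PAL2 were both lower.

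TUP1, the general corepressor of glucose-repressed genes and a member of the list of 21, stood apart on the arrays labelled mutant and is named after its values were seen. It read 5114 and 6193 units in the mutant with H2O2 and 3014 and 4951 units in the mutant without H2O2, against 14263 and 20080 units in control cells with H2O2 and 22815 and 22446 units in control cells without H2O2. The other 20 genes of that list read between 1.53 and 49.1 units on the arrays labelled mutant. CYC8, the partner of TUP1, read 17.9 and 20.9 units in the mutant with H2O2 and 18.4 and 16.6 units in the mutant without H2O2. Why the TUP1 probe was bright on these arrays was not tested.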
